A study of Mus musculus with 6 samples.

Results

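Asb2 and 8 further genes of the ubiquitin system of T cells (Rnf128, Cblb, Cbl, Itch, Nedd4, Ndfip1, Peli1 and Dtx1) were followed on 6 oligonucleotide arrays of mouse Th2 cells. They were taken as named genes of T cell tolerance and Th2 control, with every probe set that names the gene alone. This gave 9 of 18194 genes and 26 of 34958 probe sets that name 1 gene. A probe set is the group of short probes on the array that reads 1 transcript. Each gene was read from its brightest probe set, and for the 9 genes the others are given beside it. Further genes were read from the brightest alone unless more is given, and their other probe sets can differ in sign.

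The cells were splenic CD4 T cells of C57BL/6 mice, whose number is not given in the sources used here. Th2-1st cells, or effector Th2 cells, came from 5 days of culture with 25 U/ml IL-2 and 100 U/ml IL-4 after ligation of the TCR and CD28. Th2-4th cells, or fully developed Th2 cells, had passed further cycles of rest without added cytokines and restimulation through the TCR with IL-2 and an IL-4-blocking antibody, so that IL-4 was blocked in the later cycles only. Per culture, 1 array was hybridised with RNA of cells given GATA3 siRNA after 4 h of anti-TCR stimulation, 1 with RNA of control siRNA cells after the same stimulation, and 1 with RNA of control siRNA cells left unstimulated. All cells, controls included, had been transfected by nucleofection 24 h before the stimulation, and the same pair of siRNAs served both cultures.

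Ubiquitin ligases mark proteins for degradation or for rerouting in the cell, and in T cells several of them raise the threshold of activation. RING ligases such as c-Cbl, Cbl-b and GRAIL (the product of Rnf128) bring a ubiquitin-loaded conjugating enzyme to the substrate, whereas HECT ligases such as Itch and Nedd4 take over the ubiquitin before passing it on. ASB2 is an ankyrin repeat protein with a SOCS box, through which it docks on Elongins and a Cullin and selects the substrate of that complex.

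No condition was measured on more than 1 array, so replicate error is unknown and p-values are not given. Values are linear signals scaled to a common trimmed mean of 500. Ratios under 0.5-fold or over 2-fold were counted as changes. The spread given beside a log2 ratio is a robust SD among the 500 genes nearest in signal, which includes real changes and is no replicate error. Array medians lay between 61.8 and 74.2. Gata3, the target of the siRNA, read 2853 with GATA3 siRNA and 9261 with control siRNA in stimulated Th2-4th cells, and 1798 with GATA3 siRNA and 4883 with control siRNA in stimulated Th2-1st cells. The 6 measured T cell markers lay above the array median on all 6 arrays and summed to at least 39212. The 4 B cell markers summed to at most 199, the 6 myeloid markers to at most 329 and the 4 stromal markers to at most 169.6. None of these 3 lists had a marker above the median on all 6 arrays, though the myeloid Adgre1 was on 5. Of 4 CD8 T and NK cell markers, Cd8a and Cd8b1 were on all 6, and the sum reached 1132. The 5 mast cell and basophil markers summed to at most 1230.2.

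GATA3 binds GATA words in DNA, and anti-TCR stimulation acts on transcription through NFAT and AP-1, so the 250 bases before the annotated start were searched for these words in the member genes. The sequences are those of RefSeq on build GRCm38.p6, read on the strand of the gene, and 9 windows of 7 members were in the table. They are shown for the members whose signals moved most and for the single window with a GATA word and the single window with an AP-1 word, with the matches in capitals.
Asb2, chr12:103356002-103356251, minus strand: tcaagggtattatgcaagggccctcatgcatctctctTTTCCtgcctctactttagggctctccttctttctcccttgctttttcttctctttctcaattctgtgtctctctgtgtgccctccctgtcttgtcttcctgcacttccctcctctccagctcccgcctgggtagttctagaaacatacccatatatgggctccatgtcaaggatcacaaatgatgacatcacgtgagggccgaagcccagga
Asb2, start of a shorter transcript, chr12:103338391-103338640, minus strand: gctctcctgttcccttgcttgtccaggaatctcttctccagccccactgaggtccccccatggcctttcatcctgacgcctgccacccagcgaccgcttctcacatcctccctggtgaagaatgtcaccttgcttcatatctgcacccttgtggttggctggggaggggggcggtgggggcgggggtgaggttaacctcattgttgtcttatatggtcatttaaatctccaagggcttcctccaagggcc
Rnf128, chrX:139610370-139610619, plus strand: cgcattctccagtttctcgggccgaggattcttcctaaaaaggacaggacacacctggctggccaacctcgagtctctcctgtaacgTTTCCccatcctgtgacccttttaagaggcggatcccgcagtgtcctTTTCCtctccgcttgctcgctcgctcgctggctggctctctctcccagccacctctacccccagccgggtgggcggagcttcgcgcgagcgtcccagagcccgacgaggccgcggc
Cblb, chr16:52031299-52031548, plus strand: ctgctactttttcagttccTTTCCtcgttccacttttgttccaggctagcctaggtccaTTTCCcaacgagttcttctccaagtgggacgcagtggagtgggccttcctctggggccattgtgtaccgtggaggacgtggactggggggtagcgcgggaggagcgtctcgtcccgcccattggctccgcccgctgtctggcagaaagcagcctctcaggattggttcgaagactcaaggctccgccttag
Nedd4, downstream start, chr9:72693048-72693297, plus strand: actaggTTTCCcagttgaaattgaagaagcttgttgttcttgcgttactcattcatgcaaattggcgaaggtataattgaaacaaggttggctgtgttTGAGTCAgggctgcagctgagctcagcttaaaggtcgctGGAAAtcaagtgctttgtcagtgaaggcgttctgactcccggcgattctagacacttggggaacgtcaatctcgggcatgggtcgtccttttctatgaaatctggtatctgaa
Dtx1, chr5:120711670-120711919, minus strand: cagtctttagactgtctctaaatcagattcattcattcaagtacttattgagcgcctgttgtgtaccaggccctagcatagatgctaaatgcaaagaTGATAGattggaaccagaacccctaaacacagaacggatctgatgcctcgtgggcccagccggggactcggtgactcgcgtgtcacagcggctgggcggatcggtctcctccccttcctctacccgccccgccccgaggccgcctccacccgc
The words searched on both strands were AGATAA or AGATAG and also TGATAA or TGATAG for GATA factors, the NFAT core GGAAA and the AP-1 word TGANTCA. The first Asb2 window holds 1 NFAT core, read as TTTCC, 213 bases before the start, and no GATA or AP-1 word, and the second holds none of the 3. Rnf128 and Cblb each hold 2 NFAT cores, and Dtx1 has TGATAG 153 bases before its start. The Nedd4 window holds the AP-1 word TGAGTCA 152 bases before the start, beside 2 NFAT cores. Of the windows not shown, that of Cbl holds 3 NFAT cores, and those of Peli1 and of the other Nedd4 start hold none of the 3 words. Of 32851 promoters of the same length, 26.5% hold a GATA word, 55.6% an NFAT core and 6.75% the AP-1 word, and a match describes the letters of a window only.

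Of the 9 genes, each read from its brightest probe set, Asb2 had the largest drop with GATA3 siRNA in both cultures. In Th2-4th cells its probe set, 1428444_at, read 1054 with GATA3 siRNA and 3372 with control siRNA after stimulation, and 3282 in unstimulated control cells. In Th2-1st cells it read 405 with GATA3 siRNA and 1078 with control siRNA after stimulation, and 1169 in unstimulated control cells. The GATA3 siRNA array was thus the lowest of its culture both times, and the control arrays of a culture lay close together. Asb2 fell to 0.313-fold in Th2-4th cells (log2 ratio -1.68, spread 0.24) and to 0.376-fold in Th2-1st cells (log2 ratio -1.41, spread 0.24). The difference between both knockdown ratios, -0.27, was not tested. The study called GATA3 targets by GATA3 binding and picked Asb2 as a positively regulated target on these arrays. The array drop is thus not independent of that pick. By qRT-PCR, a separate measure, the study also reported lower Asb2 with GATA3 siRNA in both cultures. There the decrease was substantial by its limit in Th2-1st cells and smaller in Th2-4th cells, the reverse of the array order. In bulk RNA, fewer cells that express Asb2 and less Asb2 RNA per cell cannot be told apart.

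The summed signal of 5 markers of mast cells and basophils was also lower in the knockdown. It was 321 with GATA3 siRNA and 1230.2 with control siRNA in stimulated Th2-4th cells, and 163 with GATA3 siRNA and 325 with control siRNA in stimulated Th2-1st cells. The single markers did not move together. Cpa3, a carboxypeptidase, fell at log2 knockdown ratios of -2.83 in Th2-4th and -1.91 in Th2-1st cells. Mcpt8, a basophil protease, fell in Th2-4th cells, reading 171 with GATA3 siRNA and 873 with control siRNA (-2.35), and lay from 3.01 to 7.63 on the Th2-1st arrays. The defining markers Kit, Fcer1a and Ms4a2, which lay below the array median on all 6 arrays, went the other way in Th2-4th cells, at 1.04, 1.79 and 2.28. In Th2-1st cells Kit stood at 2.65, Fcer1a at -0.50 and Ms4a2 at -0.49. On the GATA3 siRNA array of the Th2-1st culture Cpa3 read 67.7 and Mcpt8 5.81, so most of that sum came from the other 3 markers. The part of such cells in the drop of Asb2 was not tested.

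Stimulation left Asb2 at log2 ratios of 0.04 in Th2-4th cells (spread 0.92) and -0.12 in Th2-1st cells (spread 0.79). Its level was higher in Th2-4th cells than in Th2-1st cells, 3.13-fold with stimulation (log2 ratio 1.65, spread 0.49) and 2.81-fold without it (log2 ratio 1.49, spread 0.63). In the order of levels, GATA3 siRNA Th2-1st cells were lowest. GATA3 siRNA Th2-4th cells and both Th2-1st control arrays followed, with steps inside the spread, and both Th2-4th control arrays came last, with a step of 0.04 between them. With GATA3 siRNA, Th2-4th cells read 1054, close to the 1078 of stimulated Th2-1st control cells.

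**Figure D1:**
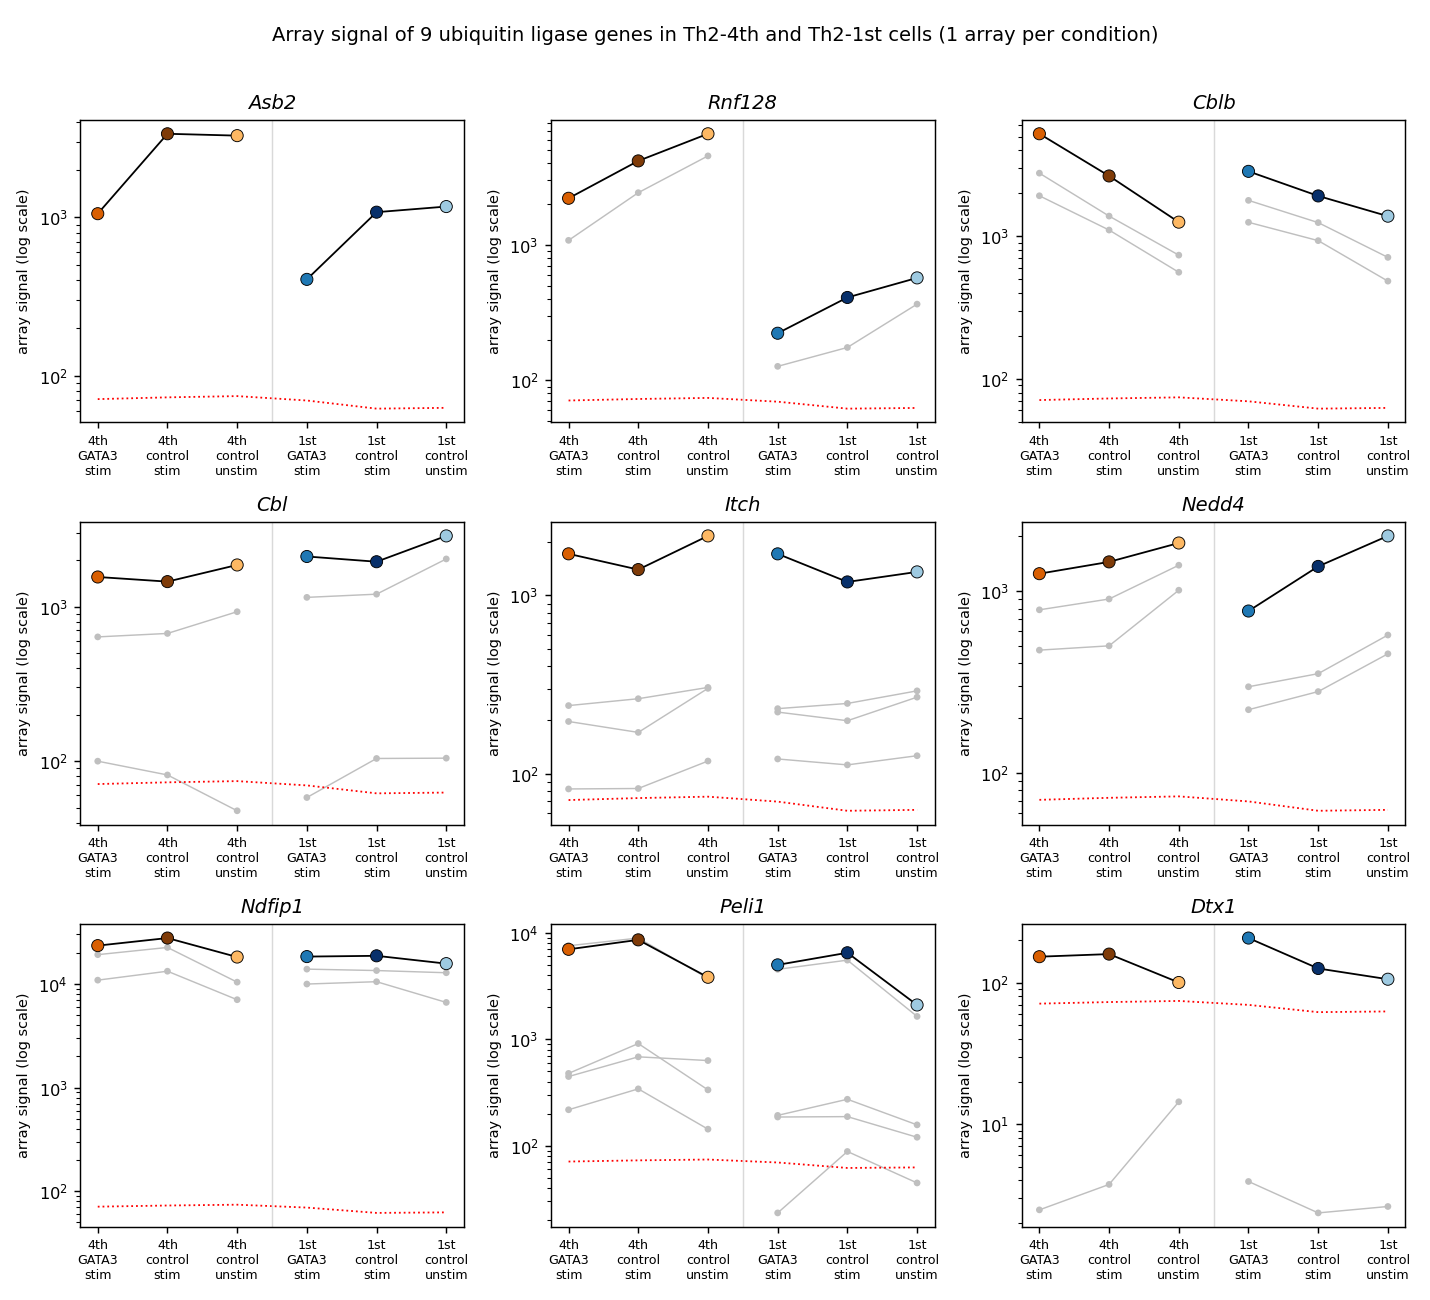
Array signal (vertical axis, log scale, a scale of its own for each gene) of the 9 genes on the 6 arrays, 1 point per array, with Th2-4th cells in orange and brown to the left of Th2-1st cells in blue, and from left to right GATA3 siRNA stimulated, control siRNA stimulated and control siRNA unstimulated. Coloured points are the brightest probe set, grey points the others and the red dotted line the array median. Asb2 is lowest with GATA3 siRNA in both cultures, at 1054 and 405, and Rnf128 lies from 2212 to 6628 on the Th2-4th arrays and from 223 to 571 on the Th2-1st arrays.

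The genes with profiles most like that of Asb2 were sought by the mean absolute log2 difference over the 6 arrays, each gene centred on its own mean, among 10031 genes above the array median on at least 4 arrays. Plxdc2, a plexin domain membrane protein, and Ank, a pyrophosphate transporter, differed by 0.28, 6330407A03Rik and Adam19, a metalloprotease, by 0.30 and 2410022M11Rik by 0.31. Plxdc2 read 1220.4 with GATA3 siRNA, 2558 in stimulated and 1978 in unstimulated control cells of the Th2-4th culture. Its Th2-1st signals were 346 with GATA3 siRNA, 946 in stimulated and 695 in unstimulated control cells. Among the other members Nedd4 came nearest to Asb2, at rank 1339, and Rnf128 stood at rank 5604.

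Genes of the partners of ASB2 were read in the same comparisons. Of 6 measured scaffold genes of the Cullin-5 and related ligases (Cul5, Rnf7, Elob, Eloc, Cul2 and Rbx1), which hold the Elongin-bound subunit and the RING protein together, none was past 2-fold in any of the 6 comparisons. Their knockdown ratios ran from -0.44 to 0.22 in Th2-4th cells and from -0.36 to 0.06 in Th2-1st cells, with medians of -0.07 and 0.01, against 0.01 and 0.05 over all genes. By comparison and direction, 7.49% to 21.6% of all genes were past 2-fold. In the knockdown, genes above the array median on at least 1 array of the pair gave 3.49% lower and 3.0% higher in Th2-4th cells. In Th2-1st cells they gave 2.26% lower and 4.41% higher, so none of 6 says nothing particular of these partners. Flna, filamin A, the actin cross-linker that ASB2 targets for degradation, read 2295 with GATA3 siRNA, 2138 in stimulated and 3245 in unstimulated control cells of the Th2-4th culture. Th2-1st cells gave 1985 with GATA3 siRNA, 1791 in stimulated and 3342 in unstimulated control cells. Its log2 knockdown ratios were 0.10 in Th2-4th and 0.15 in Th2-1st cells.

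Of 17 other measured ASB genes, 1 was lower and 2 were higher past 2-fold with GATA3 siRNA in Th2-4th cells, and 1 was lower and 1 higher in Th2-1st cells. The shares over all genes were 10.6% lower and 10.6% higher in Th2-4th cells, and 7.49% lower and 13.3% higher in Th2-1st cells. The 6 ASB genes above the array median on all 6 arrays included none of the ASB genes past 2-fold with GATA3 siRNA. Their knockdown ratios ran from -0.30 to 0.12 in Th2-4th and from -0.28 to 0.09 in Th2-1st cells. Stimulation lowered Asb13, which read 206 in stimulated and 769.7 in unstimulated Th2-4th control cells (log2 ratio -1.90), and 165 in stimulated and 510.4 in unstimulated Th2-1st control cells (-1.63). Asb3 fell in Th2-4th cells (-1.34) and stood at -0.85 in Th2-1st cells.

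Rnf128 encodes GRAIL, a RING ligase of endosomal membranes known from CD4 T cell anergy. By the brightest probe sets it differed most of the 9 genes between the cultures. Its brighter probe set, 1418318_at, read 2212 with GATA3 siRNA, 4178 in stimulated and 6628 in unstimulated control cells of the Th2-4th culture. On the Th2-1st arrays it read 223 with GATA3 siRNA, 409.5 in stimulated and 571 in unstimulated control cells. The order within each culture was the same, with the GATA3 siRNA array lowest and the unstimulated array highest. The arrays of a culture are different conditions and no replicates. Rnf128 was 10.2-fold higher in stimulated Th2-4th than in stimulated Th2-1st control cells (log2 ratio 3.35, spread 0.51) and 11.6-fold higher without stimulation (3.54, spread 0.64). The other probe set, 1449036_at, stood at 3.80 with and 3.64 without stimulation.

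With GATA3 siRNA, Rnf128 stood just short of 2-fold, at log2 ratios of -0.92 in Th2-4th cells (spread 0.23) and -0.88 in Th2-1st cells (spread 0.30). By 1449036_at it fell in Th2-4th cells, where it read 1082 with GATA3 siRNA and 2434 with control siRNA (-1.17), and stood at -0.46 in Th2-1st cells, where it read 127 with GATA3 siRNA and 175 with control siRNA. The 2 probe sets thus lay on different sides of the threshold in Th2-4th cells. After stimulation the brighter probe set stood at -0.67 in Th2-4th and -0.48 in Th2-1st cells, inside spreads of 0.86 and 0.82. The study lists Rnf128 among Th2-specific genes outside its GATA3 targets, a choice made on other data. By qRT-PCR, a separate measure, it nevertheless reported a drop of Rnf128 past 2-fold with GATA3 siRNA in both cultures. That drop was larger than on the brighter probe set, and only the one of the Th2-1st culture was substantial by the study's limit.

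The genes most like Rnf128 were Mx1, an interferon-induced GTPase, at a mean difference of 0.27, the membrane adaptor gene Lat2 at 0.28, the adhesion receptor gene Adgrg3 at 0.32, the Wnt carrier gene Wls at 0.33 and the long noncoding RNA Malat1 at 0.37. Mx1 read 1146 with GATA3 siRNA, 1252 in stimulated and 3336 in unstimulated control cells of the Th2-4th culture. In the Th2-1st culture Mx1 read 147 with GATA3 siRNA, 200.5 in stimulated and 239 in unstimulated control cells. Asb2 stood at rank 142 by likeness to Rnf128.

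Of 10 measured relatives of Rnf128 with the same protease-associated, transmembrane and RING domains, 1 was lower and 1 higher with GATA3 siRNA in Th2-4th cells, and 4 were higher and none lower in Th2-1st cells. Over all genes 10.6% were lower and 10.6% higher in Th2-4th cells, and 7.49% were lower and 13.3% higher in Th2-1st cells. None of the relatives past 2-fold with GATA3 siRNA was among the 5 relatives above the array median on all 6 arrays. Rnf149 rose most with stimulation, reading 14001 in stimulated and 1712 in unstimulated Th2-4th control cells (log2 ratio 3.03), and 7035 in stimulated and 1206 in unstimulated Th2-1st control cells (2.54). Its knockdown ratios, -0.65 in Th2-4th and -0.85 in Th2-1st cells, were short of 2-fold. Rnf167, a lysosomal ligase, fell with stimulation at log2 ratios of -2.44 in Th2-4th and -2.25 in Th2-1st cells. Rnf13 fell in Th2-4th cells (-1.73) and stood at -0.99 in Th2-1st cells. By their brightest probe sets Rnf13 and Rnf130 were higher in Th2-4th than in Th2-1st control cells, Rnf13 at 1.49 with and 2.24 without stimulation and Rnf130 at 1.09 and 1.24. Their probe sets did not share 1 sign. Over the 4 of Rnf13 the ratio ran from -0.76 to 1.49 with and from 0.42 to 2.24 without stimulation. Over the 4 of Rnf130 it ran from -0.17 to 2.93 with and from -0.74 to 3.75 without stimulation.

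Cblb encodes Cbl-b, a RING ligase that restrains TCR and CD28 signalling, and it was the member with the highest ratio in the Th2-4th knockdown. By the brightest probe set, 1458469_at, Cblb read 5228 with GATA3 siRNA, 2646 in stimulated and 1255 in unstimulated control cells of the Th2-4th culture. In the Th2-1st culture it read 2850.3 with GATA3 siRNA, 1917 in stimulated and 1382 in unstimulated control cells. The GATA3 siRNA array was the highest and the unstimulated array the lowest of each culture. The knockdown ratio was 0.98 in Th2-4th cells (spread 0.20), just short of 2-fold, and 0.57 in Th2-1st cells (spread 0.16). With the array medians set equal, Cblb passed 2-fold in Th2-4th cells. The other probe sets stood at 1.0 and 0.80 in Th2-4th and at 0.52 and 0.43 in Th2-1st cells, so all 3 gave a positive ratio in each culture.

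Stimulation raised Cblb in Th2-4th cells, at a log2 ratio of 1.08 against a spread of 0.88, and its ratio in Th2-1st cells was 0.47 against 0.71. The other probe sets stood at 0.98 and 0.91 in Th2-4th and at 0.94 and 0.81 in Th2-1st cells, and averaging the 3 probe sets gave 0.99 in Th2-4th cells, short of 2-fold. The control cells of both cultures were alike within the spread, with Th2-4th over Th2-1st ratios of 0.47 with and -0.14 without stimulation.

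Cbl encodes c-Cbl, which ubiquitinates activated receptors and tyrosine kinases. Its brightest probe set, 1434829_at, read 1553 with GATA3 siRNA, 1449.7 in stimulated and 1858 in unstimulated control cells of the Th2-4th culture. Its Th2-1st signals were 2108 with GATA3 siRNA, 1950.0 in stimulated and 2865 in unstimulated control cells. All 5 steps between neighbouring levels lay inside the spread. The knockdown ratios were 0.10 in Th2-4th and 0.11 in Th2-1st cells, and those of 1455886_at were -0.07 in both. The Th2-4th over Th2-1st ratios were -0.43 with and -0.62 without stimulation, and 1455886_at stood at -0.84 and -1.13. The remaining probe set, 1450457_at, lay from 47.7 to 104 and above the array median on 4 arrays, with knockdown ratios of 0.30 in Th2-4th and -0.84 in Th2-1st cells.

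Of 8 measured genes of CBL relatives and adaptors, all above the array median on all 6 arrays, none was past 2-fold with GATA3 siRNA, with ratios from -0.72 to 0.42 in Th2-4th and from -0.45 to 0.59 in Th2-1st cells. Among genes above the array median on at least 1 array of the pair, 3.49% were lower and 3.0% higher in Th2-4th cells. In Th2-1st cells 2.26% of such genes were lower and 4.41% higher, so none of 8 is near the background. Ubash3b, which encodes the phosphatase STS-1 that binds CBL proteins, rose with stimulation. It read 4723 in stimulated and 520.4 in unstimulated Th2-4th control cells (log2 ratio 3.18), and 3142 in stimulated and 295 in unstimulated Th2-1st control cells (3.41). Ubash3a, its lymphoid relative, fell in Th2-1st cells (-1.41), stood at -0.49 in Th2-4th cells, and was higher in stimulated Th2-4th than in stimulated Th2-1st control cells (1.32).

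Itch is a HECT ligase that targets JunB, a factor of Il4 transcription, and mice without it have raised Th2 responses. Its brightest probe set, 1415769_at, read 1712 with GATA3 siRNA, 1396 in stimulated and 2158 in unstimulated control cells of the Th2-4th culture. Th2-1st cells gave 1711 with GATA3 siRNA, 1190.4 in stimulated and 1355 in unstimulated control cells. The knockdown ratios were 0.29 in Th2-4th (spread 0.24) and 0.52 in Th2-1st cells (spread 0.16), both short of 2-fold. The other 3 probe sets, all above the array median but dimmer, stood between -0.13 and 0.20 in Th2-4th and between -0.10 and 0.16 in Th2-1st cells. Every step between neighbouring levels of Itch lay inside the spread, and none of its 4 probe sets was past 2-fold in any comparison.

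Nedd4 encodes the HECT ligase that gives the family its name and that targets Cbl-b in mouse T cells. Its brightest probe set, 1451109_a_at, read 1245 with GATA3 siRNA, 1446 in stimulated and 1837 in unstimulated control cells of the Th2-4th culture. On the Th2-1st arrays it read 776 with GATA3 siRNA, 1365 in stimulated and 2009 in unstimulated control cells. The GATA3 siRNA array was the lowest of each culture, at log2 ratios of -0.22 in Th2-4th (spread 0.25) and -0.82 in Th2-1st cells (spread 0.20), both short of 2-fold. The other probe sets stood at -0.20 and -0.08 in Th2-4th and at -0.33 and -0.24 in Th2-1st cells.

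The probe sets of Nedd4 differed in the culture comparison. By 1451109_a_at the Th2-4th over Th2-1st ratio was 0.08 with and -0.13 without stimulation. By 1421955_a_at Nedd4 was higher in Th2-4th cells, reading 904 in stimulated Th2-4th and 279.8 in stimulated Th2-1st control cells (log2 ratio 1.69, and 1.62 without stimulation). The remaining probe set, 1450431_a_at, stood at 0.51 with and 0.82 without stimulation, and fell with stimulation in Th2-4th cells (-1.02). After stimulation all 3 gave a negative ratio in each culture.

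Ndfip1 encodes a membrane adaptor that recruits and activates Itch and Nedd4, and it was among the brightest genes of the arrays. Its brightest probe set, 1424821_at, read 23355 with GATA3 siRNA, 27636 in stimulated and 18127 in unstimulated control cells of the Th2-4th culture. In the Th2-1st culture it read 18310.1 with GATA3 siRNA, 18626 in stimulated and 15659 in unstimulated control cells. The knockdown ratios were -0.24 in Th2-4th (spread 0.17) and -0.02 in Th2-1st cells (spread 0.10). After stimulation Ndfip1 stood at 0.61 in Th2-4th and 0.25 in Th2-1st cells. By 1424820_a_at it rose with stimulation in Th2-4th cells, reading 22427 in stimulated and 10378 in unstimulated control cells (1.11), and stood at 0.07 in Th2-1st cells. The brightest signals of the 6 arrays, from 36674 to 58757, lay above these levels.

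Of 10 measured NEDD4 family ligases and adaptors, 1 was lower with GATA3 siRNA in Th2-4th cells and 1 was higher in Th2-1st cells. Over all genes 10.6% were lower and 10.6% higher in Th2-4th cells, and 7.49% were lower and 13.3% higher in Th2-1st cells. Both calls were Hecw1, at -1.32 in Th2-4th and 3.06 in Th2-1st cells, with signals below the array median on all 6 arrays. The 8 genes above the array median on all 6 arrays held no call. Ndfip2, the relative of Ndfip1, rose with stimulation, reading 10121 in stimulated and 3919 in unstimulated Th2-4th control cells (log2 ratio 1.37), and 6569 in stimulated and 2284 in unstimulated Th2-1st control cells (1.52). Arrdc3, an arrestin domain adaptor of NEDD4 ligases, fell at -2.42 in Th2-4th and -2.18 in Th2-1st cells, and was higher in Th2-4th than in Th2-1st control cells, at 1.48 with and 1.72 without stimulation. By its brightest probe set the ligase gene Wwp1 rose in Th2-1st cells (1.06) and stood at 0.11 in Th2-4th cells. By its own, Smurf1 was higher in unstimulated Th2-4th than in unstimulated Th2-1st control cells (1.06). Over all probe sets of the gene, the Wwp1 ratio in Th2-1st cells ran from -0.44 to 1.06, and that Smurf1 ratio from -0.09 to 1.06.

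Peli1, a Pellino ligase that limits the NF-kappa B subunit c-Rel in mouse T cells, rose with stimulation in both cultures. Its brightest probe set, 1417371_at, read 7008 with GATA3 siRNA, 8601 in stimulated and 3828 in unstimulated control cells of the Th2-4th culture. Its Th2-1st signals were 5006 with GATA3 siRNA, 6507 in stimulated and 2102 in unstimulated control cells. The unstimulated array was the lowest of each culture. Peli1 rose 2.25-fold in Th2-4th cells (log2 ratio 1.17, spread 0.82) and 3.10-fold in Th2-1st cells (1.63, spread 0.66). The next probe set, 1417372_a_at, stood at 1.26 in Th2-4th and 1.76 in Th2-1st cells.

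The knockdown ratios of Peli1 were -0.30 in Th2-4th (spread 0.18) and -0.38 in Th2-1st cells (spread 0.15), short of 2-fold. The 3 dimmer probe sets stood lower or near 0, with 1431060_at at -0.93 in Th2-4th and -0.50 in Th2-1st cells, 1431061_s_at at -0.65 and -0.01, and 1459398_at at -0.62 and -1.92. The last value rests on 23.4 with GATA3 siRNA and 88.3 with control siRNA, and the GATA3 siRNA signal lay below the array median. Th2-4th over Th2-1st ratios of 1417371_at were 0.40 with and 0.86 without stimulation, and those of 1417372_a_at were 0.69 and 1.19. Of the dimmer probe sets, 1431060_at stood at 1.74 and 1.09, and 1431061_s_at at 0.87 and 0.25. By 1459398_at Peli1 read 684 in stimulated Th2-4th and 88.3 in stimulated Th2-1st control cells (2.95). Its ratio without stimulation was 3.82, where the Th2-1st signal, 44.7, lay below the array median. Of the relatives of Peli1, Peli2 was measured and lay above the array median on 1 of 6 arrays, and Peli3 was not analysed here.

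Dtx1 encodes Deltex1, a RING ligase of the Notch pathway that is known as a target of NFAT in T cell anergy, and its signals lay close to the array medians. Its brighter probe set, 1425822_a_at, read 152 with GATA3 siRNA, 159 in stimulated and 100.2 in unstimulated control cells of the Th2-4th culture. Th2-1st cells gave 206 with GATA3 siRNA, 126 in stimulated and 106 in unstimulated control cells. The knockdown ratio was -0.06 in Th2-4th (spread 0.41) and 0.71 in Th2-1st cells (spread 0.39), and no step between neighbouring levels was larger than the spread. The other probe set lay from 2.36 to 14.4, below the array median on all 6 arrays. All 4 measured relatives (Dtx2, Dtx3, Dtx4 and Dtx3l) were within 2-fold with GATA3 siRNA. Of all genes 10.6% were lower and 10.6% higher in Th2-4th cells, and 7.49% lower and 13.3% higher in Th2-1st cells. Dtx3 fell with stimulation (-1.16 in Th2-4th and -1.13 in Th2-1st cells) and was higher in Th2-4th than in Th2-1st control cells (1.20 with and 1.23 without stimulation).

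Read over the 9 genes, the knockdown gave 1 lower gene, Asb2, and none higher in each culture. Over all genes 10.6% were lower and 10.6% higher in Th2-4th cells, and 7.49% were lower and 13.3% higher in Th2-1st cells. Among genes above the array median on at least 1 array of the pair, 3.49% were lower and 3.0% higher in Th2-4th cells, and 2.26% were lower and 4.41% higher in Th2-1st cells. A count of 1 in 9 says nothing particular of the set. The median log2 ratio of the members was -0.22 in Th2-4th and -0.02 in Th2-1st cells, against 0.01 and 0.05 over all genes. By probe set, 2 of 26 were lower and none was higher in each culture. In Th2-4th cells these were the probe set of Asb2 and 1449036_at of Rnf128, and in Th2-1st cells that of Asb2 and 1459398_at of Peli1. The share over all probe sets is not given here, so the probe set counts are no result about the members.

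**Figure D2:**
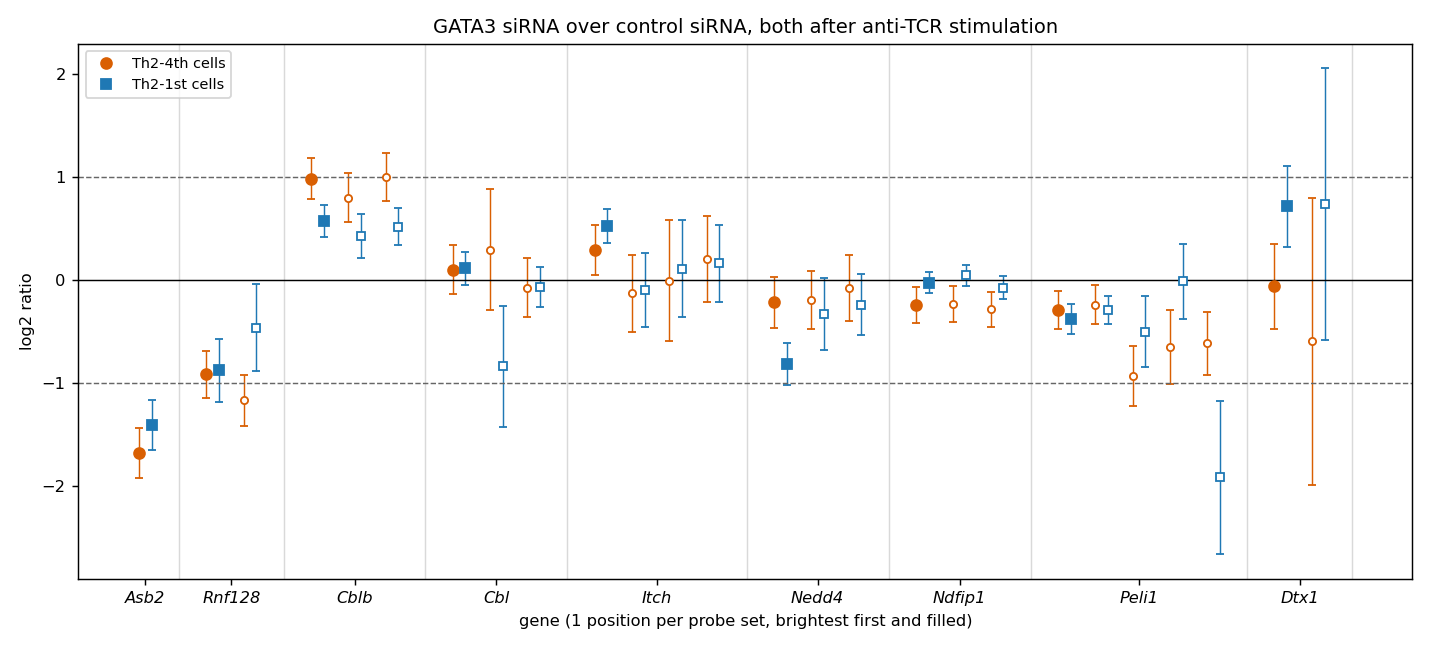
Log2 ratio of GATA3 siRNA to control siRNA, both stimulated (vertical axis), for each of the 26 probe sets by gene (horizontal axis), Th2-4th cells as orange circles and Th2-1st cells as blue squares. Filled symbols are the brightest probe set, bars are the spread among genes of like signal on either side and dashed lines mark 2-fold. Asb2 lies below the lower line in both cultures, at -1.68 and -1.41, and Cblb lies just under the upper line in Th2-4th cells, at 0.98.

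**Figure D3:**
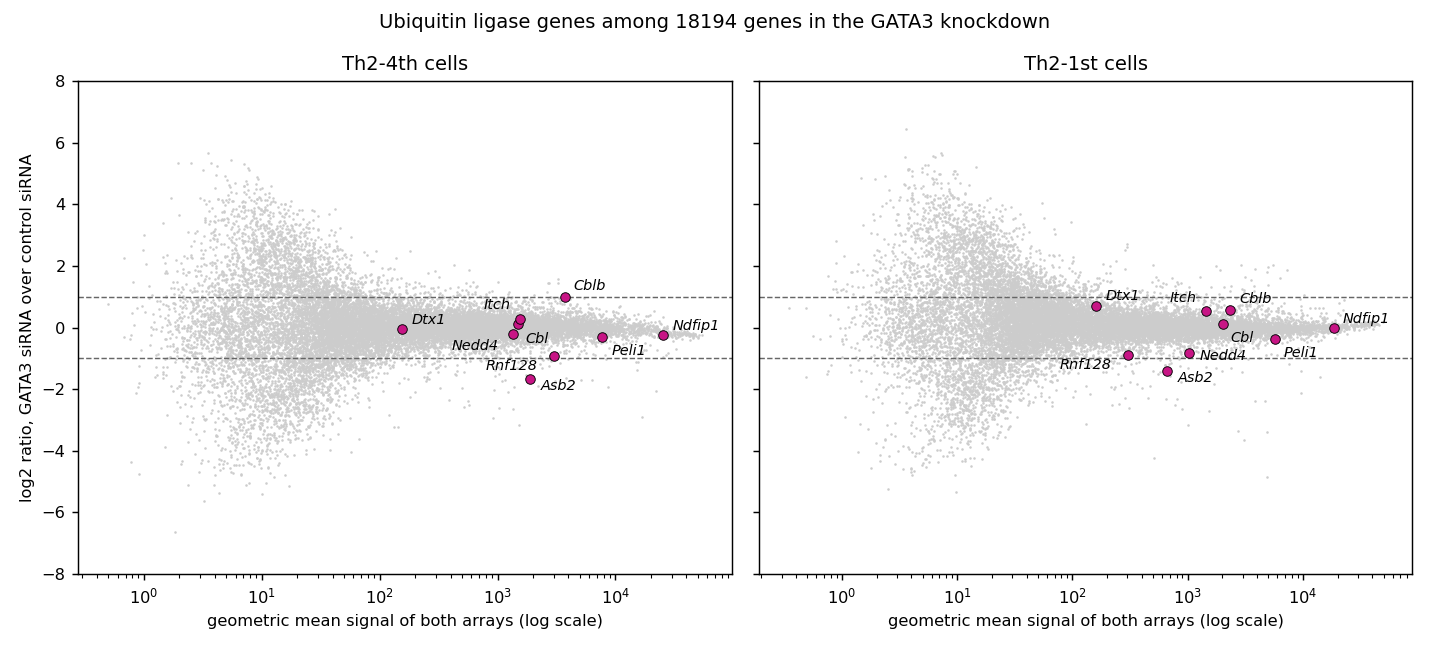
Knockdown ratio, GATA3 over control siRNA on the log2 scale (vertical axis), by the geometric mean of the pair's signals (horizontal axis, log scale), with 18194 genes as grey points, in Th2-4th cells (left) and Th2-1st cells (right). The 9 ubiquitin ligase genes are the named points, dashed lines mark 2-fold, and Asb2 is the only named point past a line in either panel.

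Stimulation raised 2 of the 9 genes in Th2-4th cells, Cblb and Peli1, and 1 in Th2-1st cells, Peli1, and lowered none past 2-fold. Over all genes 18.7% were higher and 21.6% lower in Th2-4th cells, and 17.5% were higher and 16.9% lower in Th2-1st cells. Of 11186 genes above the array median on at least 1 array of the pair, 1628 were higher and 2354 lower in Th2-4th cells. In Th2-1st cells 1178 of 11022 such genes were higher and 1844 lower. The counts of members are too small to be read apart from either background. The median log2 ratio of the members was 0.04 in Th2-4th and -0.12 in Th2-1st cells, against -0.10 and -0.01 over all genes. By probe set, 6 of 26 were higher and 2 lower in Th2-4th cells, and 2 were higher and 1 lower in Th2-1st cells. Probe sets of 1 gene count separately there, and without the share over all probe sets these counts are no result about the members. All ratios of stimulation share the stimulated control array with the knockdown of the same culture, with the opposite role in the ratio, so values of both comparisons are not independent. With that array in common, Cblb stood above its unstimulated level in stimulated control cells and higher again with GATA3 siRNA, whereas Peli1 with GATA3 siRNA lay below the stimulated control.

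**Figure D4:**
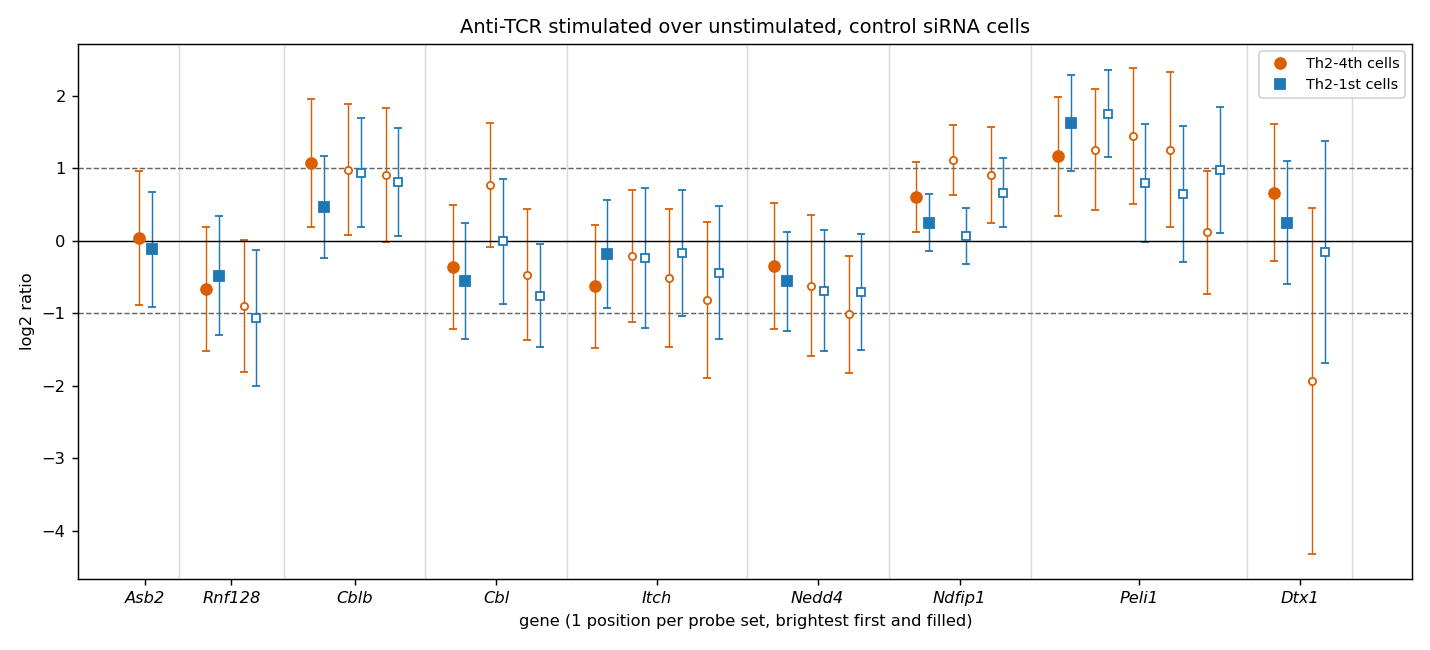
Log2 ratio of stimulated to unstimulated control siRNA cells (vertical axis) for each of the 26 probe sets by gene (horizontal axis), Th2-4th cells as orange circles and Th2-1st cells as blue squares, with filled symbols for the brightest probe set, bars for the spread among genes of like signal and dashed lines at 2-fold. Peli1 lies above the upper line in both cultures, at 1.17 and 1.63, and the bars of Asb2 and of all 4 probe sets of Itch reach 0.

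Between the cultures, 2 of the 9 genes, Asb2 and Rnf128, were higher in Th2-4th than in Th2-1st control cells and none was lower, both with and without stimulation. Over all genes 17.2% were higher and 12.7% lower with stimulation, and 19.5% were higher and 12.3% lower without it. Of 11130 genes above the array median on at least 1 array of the pair, 1268 were higher and 883 lower with stimulation. Without it 1292 of 10872 such genes were higher and 1002 lower. A count of 2 in 9 is too small to be read apart from either background. The median log2 ratio of the members was 0.40 with and 0.21 without stimulation, against 0.10 and 0.17 over all genes. By probe set, 6 of 26 were higher and none lower with stimulation, and 8 were higher and 2 lower without it. The 8 hold 3 of Peli1 and the Dtx1 probe set that lay below the array median on all 6 arrays. The share over all probe sets is not given here, so these counts are no result about the members. The comparisons with and without stimulation share no array, and with 1 array per condition a difference between preparations and a difference between cultures cannot be told apart.

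Cell markers also differed between the cultures. The 6 T cell markers summed to 61709 in stimulated Th2-4th and 40263 in stimulated Th2-1st control cells, of which Cd3g gave 21835 and 7000. They did not move together, with Cd3g at a log2 ratio of 1.64, Cd4 at 1.35, Cd3e at 0.85, Cd2 at 0.44, Thy1 at 0.32 and Cd5 at -0.60. The 5 mast cell and basophil markers summed to 1230.2 in stimulated Th2-4th and 325 in stimulated Th2-1st control cells, and to 824 in unstimulated Th2-4th and 634 in unstimulated Th2-1st control cells. Most of the difference in stimulated cells came from Mcpt8, at 873 in Th2-4th and 7.63 in Th2-1st cells. The others stood at log2 ratios of 1.57 (Kit), 0.33 (Cpa3), -1.30 (Ms4a2) and -3.08 (Fcer1a) there. The 4 CD8 T and NK cell markers summed to 966 in stimulated Th2-4th and 760 in stimulated Th2-1st control cells (Cd8a at 0.43, Cd8b1 at -0.94, Ncr1 at 0.15 and Eomes at 1.06), and to 325 in unstimulated Th2-4th and 523 in unstimulated Th2-1st control cells. The part of these differences in the higher Asb2 and Rnf128 signals was not tested.

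**Figure D5:**
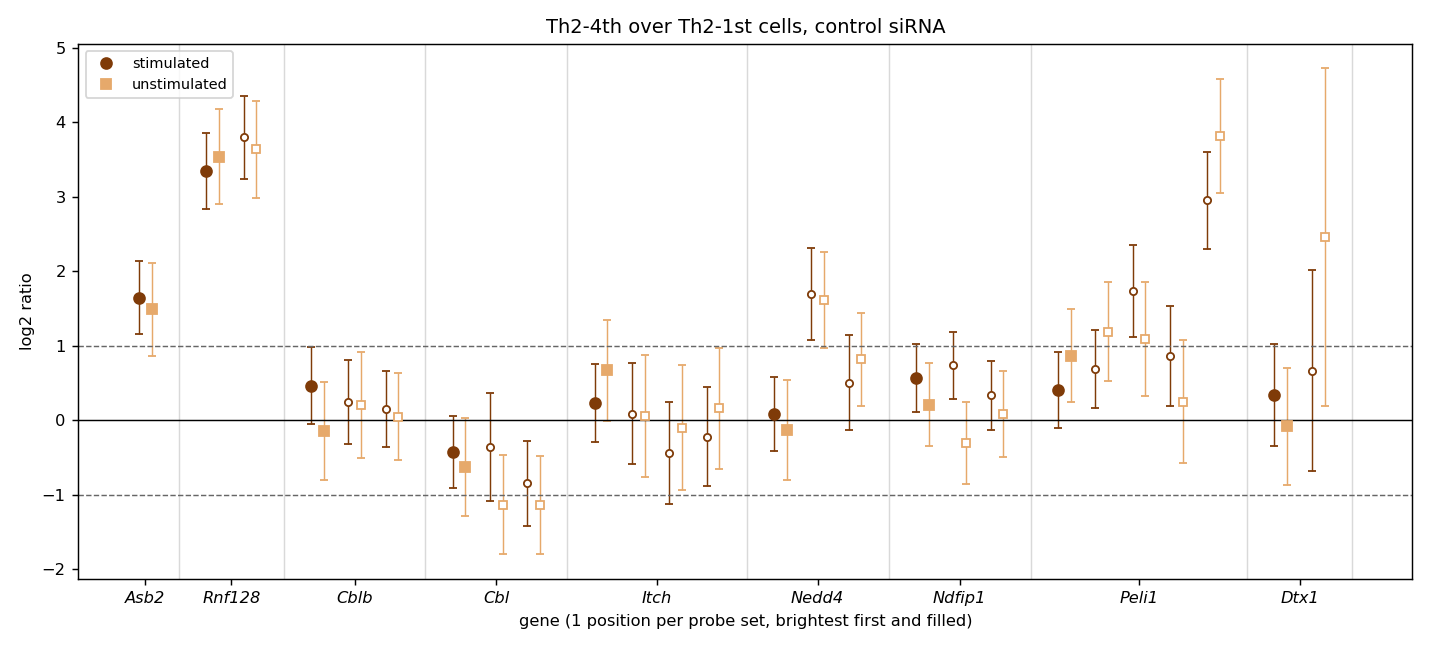
Log2 ratio of Th2-4th to Th2-1st control siRNA cells (vertical axis) for each of the 26 probe sets by gene (horizontal axis), stimulated cells as dark brown circles and unstimulated cells as light brown squares, with filled symbols for the brightest probe set, bars for the spread among genes of like signal and dashed lines at 2-fold. Both probe sets of Rnf128 lie between 3.35 and 3.80, Asb2 lies at 1.65 and 1.49, and the probe sets of Nedd4 and of Peli1 lie apart from each other.

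Genes of known substrates of these ligases were read in the same comparisons. Of 15 measured substrate genes none was lower or higher with GATA3 siRNA in either culture, with medians of -0.12 in Th2-4th and 0.11 in Th2-1st cells. All genes gave 10.6% lower and 10.6% higher in Th2-4th cells, and 7.49% lower and 13.3% higher in Th2-1st cells. With stimulation 5 were higher and 2 lower in Th2-4th cells, against 18.7% higher and 21.6% lower over all genes, and 5 were higher and 1 lower in Th2-1st cells, against 17.5% higher and 16.9% lower. Rel, the c-Rel gene, read 3714 in stimulated and 98.2 in unstimulated Th2-4th control cells (log2 ratio 5.24), and 1829 in stimulated and 80.9 in unstimulated Th2-1st control cells (4.50). Junb, the AP-1 gene whose protein Itch targets, rose at 2.40 in Th2-4th and 2.18 in Th2-1st cells. Jun rose in Th2-1st cells (2.34) and stood at 0.68 in Th2-4th cells, and Notch1 rose in Th2-4th cells (1.91) and stood at 0.83 in Th2-1st cells. These differences between the cultures were not tested.

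Enzymes that act with or against these ligases, and further ligases of T cells, were counted with GATA3 siRNA. Of 11 measured deubiquitinase genes none was past 2-fold in either culture. Of 23 other ligase genes 1 was lower in Th2-4th cells, Marchf1, which lay below the array median on all 6 arrays, and none was past 2-fold in Th2-1st cells. Of 12 ubiquitin-conjugating enzyme and pathway genes 1 was higher, Ube2d1, a partner of many RING ligases, in Th2-1st cells, where it read 282 with GATA3 siRNA and 137 with control siRNA (log2 ratio 1.04). In Th2-4th cells Ube2d1 stood at -0.08. With GATA3 siRNA 10.6% of all genes were lower and 10.6% higher in Th2-4th cells. In Th2-1st cells 7.49% were lower and 13.3% higher, so these counts are no result about the lists.

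With stimulation 3 of the 11 deubiquitinase genes were higher and 1 lower in Th2-4th cells, and 1 was higher and 2 were lower in Th2-1st cells. Of the 23 other ligase genes 5 were higher and 1 lower in Th2-4th cells, and 3 were higher and none lower in Th2-1st cells. Of the 12 conjugating enzyme and pathway genes none was past 2-fold in Th2-4th cells and 1 was higher in Th2-1st cells. Over all genes 18.7% were higher and 21.6% lower in Th2-4th cells, and 17.5% were higher and 16.9% lower in Th2-1st cells, so these counts are no result about the lists. Tnfaip3, the NF-kappa B inhibitor A20, rose at log2 ratios of 1.90 in Th2-4th and 2.53 in Th2-1st cells, and the deubiquitinase gene Cyld fell in Th2-4th cells (-1.31) and stood at -0.97 in Th2-1st cells. The RING ligase gene Siah2 rose at 2.51 in Th2-4th and 1.97 in Th2-1st cells, and Rnf19b at 1.62 and 1.38. Birc3, the inhibitor of apoptosis cIAP2, rose in Th2-1st cells (1.25) and stood at 0.03 in Th2-4th cells, where it read 4359.8 in stimulated and 4284 in unstimulated control cells. Skp2, an F-box protein of the cell cycle, was lower in Th2-4th than in Th2-1st control cells, reading 359 in stimulated Th2-4th and 1075 in stimulated Th2-1st cells (-1.58, and -1.38 without stimulation).

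Rnf128, Cblb, Itch and Dtx1 are textbook genes of T cell anergy, and 12 further genes of that state were measured. With GATA3 siRNA 1 was higher in Th2-4th cells, Lag3, against 10.6% higher and 10.6% lower over all genes. In Th2-1st cells 1 was lower, Izumo1r, against 7.49% lower and 13.3% higher over all genes. With stimulation 5 were higher and 2 lower in Th2-4th cells, against 18.7% higher and 21.6% lower over all genes, and 4 were higher and 2 lower in Th2-1st cells, against 17.5% higher and 16.9% lower. Egr2, a zinc finger factor that induces ligase genes in anergic T cells, read 26871 in stimulated and 101 in unstimulated Th2-4th control cells (log2 ratio 8.05), and 10921 in stimulated and 83.1 in unstimulated Th2-1st control cells (7.04). Egr3, its relative, stood at 5.43 in Th2-4th and 5.20 in Th2-1st cells by its brighter probe set, and at 0.28 and -0.30 by the other. In stimulated control cells 6 of the 12 genes were higher and 1 lower in Th2-4th than in Th2-1st cells, against 17.2% higher and 12.7% lower over all genes. In unstimulated control cells 4 of the 12 were higher and 2 lower, against 19.5% higher and 12.3% lower. Nrp1, a semaphorin coreceptor, read 10802 in stimulated Th2-4th and 2939.6 in stimulated Th2-1st cells (1.88), and the NFAT gene Nfatc1 read 5284 in stimulated Th2-4th and 1998 in stimulated Th2-1st cells (1.40). Izumo1r was lower in Th2-4th cells, at -1.44 with and -1.36 without stimulation. Lag3 was lower without stimulation (-2.18), where both signals, 8.36 in Th2-4th and 37.8 in Th2-1st cells, lay below the array median. Of the 4 ligase genes named here, Rnf128 was higher in Th2-4th control cells, while the ratios of Cblb, Itch and Dtx1 in stimulated cells were 0.47, 0.23 and 0.34.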

How the data were processed

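RNA of 6 samples of Th2 cells was labelled with a 3′ in vitro transcription kit and hybridised to Affymetrix mouse genome arrays, 1 array per condition. The deposited values are linear signal intensities, 1 per probe set, which the authors obtained with the Affymetrix Expression Console. Its version is not given in the sources used here, nor is its algorithm. The mean of each array without the lowest and highest 2% is 500, so the arrays were already scaled. Detection calls were not used here, and the single array of each condition limits the precision.

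Of 45101 probe sets, the platform annotation gave 1 gene to 34958, several to 932 and none to 9211, and 34754 (99.4%) of those with 1 gene matched the RefSeq table used for current symbols. Each of 18194 genes was read from its brightest probe set by mean log2 signal over the arrays, and 9012 genes had more than 1 probe set. Log2 ratios of array pairs were computed for GATA3 over control siRNA, stimulated over unstimulated, and control cells of the Th2-4th over the Th2-1st culture, and changes were ratios below 0.5 or above 2, with no filter on low signals. The spread was 1.4826 times the median absolute deviation, taken over log2 ratios of the 500 genes nearest in signal. No test was run, since no condition was repeated. The 2-fold call and the spread were run on simulated log2 ratios, drawn with the spread of these data and with known effects in bright genes only. That run did not cover the choice of probe set, the scaling, low signals or replicate error. Members and gene lists were chosen with earlier results of these data known, so no count is independent support. Named were all members with every probe set, Gata3, up to 4 genes of each list past 2-fold with signals above the array median on both arrays of a pair, and the 5 genes most like Asb2 and Rnf128. Kit, Fcer1a, Ms4a2, Cd8a, Ncr1, Cd3e, Cd2, Cd5, Thy1, Hecw1, Marchf1, Lag3, Izumo1r, Flna, Peli2, Peli3, Dtx2, Dtx4 and the scaffold genes are named besides, to say which genes a count or a sum holds. The 21 lists hold 180 genes, of which 167 were measured. Promoter sequences came from RefSeq (GRCm38.p6). Alternatives changed the probe set that stands for a gene, the scaling, the treatment of low signals and the threshold. Python 3.11.15, numpy 2.4.6, pandas 2.3.3, scipy 1.17.1 and matplotlib 3.10.9 were used.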

Additional observations from a re-analysis of the deposited data

Results flagged for a closer look

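The knockdown ratio of Dtx1 had opposite signs in both cultures, with a log2 ratio of -0.061 in Th2-4th cells and 0.71 in Th2-1st cells, against spreads of 0.41 and 0.39. The stimulation ratio of Asb2 also had opposite signs, at 0.039 in Th2-4th cells and -0.12 in Th2-1st cells, against spreads of 0.92 and 0.79. Neither difference was tested, and with 1 array per condition no sample could be compared with others of its group.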

How the results depend on the processing

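Each of the 6 counts of members past 2-fold was recomputed under 8 alternatives, and each member ratio under the 6 of them that give other values. No ratio past 2-fold changed sign, and 294 of 324 ratios and 32 of 48 counts kept their value within the limits set. Using each gene's probe set of largest ratio, the count of members past 2-fold was 2 in Th2-4th (Asb2, Rnf128) and 2 in Th2-1st (Asb2, Peli1) for the knockdown, 5 in Th2-4th and 2 in Th2-1st cells for stimulation, and 4 with and 6 without stimulation for Th2-4th over Th2-1st cells. For 18194 genes that setting gave 3174 lower and 3202 higher in the Th2-4th knockdown, and 2352 lower and 3969 higher in the Th2-1st one. Stimulation gave 5243 lower and 4739 higher in Th2-4th cells, and 4211 lower and 4594 higher in Th2-1st cells. Th2-4th over Th2-1st cells gave 3516 lower and 4665 higher with and 3356 lower and 5192 higher without stimulation. With the mean over probe sets, the count of members was 2 for the Th2-4th knockdown (Asb2, Rnf128), 1 for stimulation in Th2-4th cells (Peli1) and 4 for the unstimulated culture comparison. All 18194 genes then gave 1957 lower and 1973 higher in that knockdown. They gave 3723 lower and 3330 higher for that stimulation, and 2075 lower and 3621 higher for that culture comparison. With array medians set equal, the count of members was 2 for the knockdown in Th2-4th cells (Asb2, Cblb) and 2 in Th2-1st cells (Asb2, Rnf128). All genes then gave 1837 lower and 2024 higher in Th2-4th cells, and 1630 lower and 2060 higher in Th2-1st cells. With the threshold at 10 to the power 0.5 (a log2 ratio of 1.66), the count of members was 0 for the Th2-1st knockdown and for stimulation in Th2-4th and in Th2-1st cells, and 1 (Rnf128) for the culture comparison with and without stimulation. All genes past it in the culture comparison were 1240 lower and 1565 higher with stimulation, and 1068 lower and 1779 higher without it. The cause of these shifts in the member counts was not tested. Over the 6 alternatives that give other values, Asb2 ranged from -1.68 to -1.63 in the Th2-4th and from -1.58 to -1.35 in the Th2-1st knockdown. Scaling moved all genes too. The median log2 ratio of all genes in the Th2-1st knockdown was 0.05 as deposited and -0.12 with array medians equal, and higher genes made up 64.1% of the called ones as deposited and 51.9% after quantile normalization. Likewise, with array medians equal, that share moved to 47.6% for the unstimulated culture comparison (median -0.07), against 61.3% as deposited (0.17), and to 44.4% for the stimulated one (median -0.14), against 57.5% (0.10). For stimulation in Th2-1st cells it was 51.0% as deposited and 35.9% once signals under the array median were set to it. The labels give no replicate numbers, so there was no replicate block, and with 1 array per condition no replicate could be left out. A fit with the culture as a block, which would take both cultures as repeats of each other, was not run. Signals below the array medians, as for 1 probe set of Dtx1 on all arrays, limit what a ratio can show.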
